A study of Mus musculus with 18 samples.

Results

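The 36 genes described here encode collagen chains, the main structural proteins of the extracellular matrix, and were measured by RNA-seq in whole lungs of mouse embryos at 14.5 days post coitus (dpc). They were taken from the tables by name. Of 23420 rows in each table, 44 carried a collagen symbol made of Col, a number, the letter a and a number. The 7 chains that build cartilage (Col2a1, Col9a1, Col9a2, Col9a3, Col10a1, Col11a1 and Col11a2) were left out, and a mean normalised read count of at least 10 was required in each of the 3 tables. Col19a1 fell just outside this limit, its means being 11.2 for Rptor, 8.33 for Tfam and 22.1 for Cox10, and Col8a1 was just inside it, with 18.1, 54.7 and 15.5. All 36 genes also passed the filter on low values in each line. The set holds 8 fibrillar chains, the 6 chains of collagen IV, 6 chains of collagen VI, both chains of collagen VIII, 5 fibril-associated (FACIT) chains, 2 multiplexins, 4 transmembrane collagens and 3 others (Col7a1, Col26a1 and Col28a1).

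A collagen molecule is a helix of alpha chains, each the product of its own gene. Fibrillar collagens I, III and V are secreted as procollagens, lose their end pieces and pack into the fibrils that give connective tissue its strength, and FACIT collagens bind to the surface of these fibrils. Collagens IV, VI and VIII form networks or filaments instead, and collagen IV is the scaffold of basement membranes, including the sheet on which the branching airway epithelium of the embryonic lung rests. Fibrillar collagens are made mainly by mesenchymal cells.

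The study deleted Rptor, Tfam or Cox10 in the epithelium by means of an allele that places Cre under control of Shh. Rptor encodes a component of mTOR complex 1, Tfam a factor that maintains mitochondrial DNA and Cox10 an enzyme needed for cytochrome c oxidase. Deficient lungs were Rptorf/f; ShhCre/+, Tfamf/f; ShhCre/+ or Cox10f/f; ShhCre/+, and controls were littermates of the genotypes Rptorf/+; ShhCre/+, Tfamf/+; ShhCre/+ and Cox10f/+; ShhCre/+. There were 3 samples in each of the 6 groups, 18 in all. By the labels and methods, control lungs thus carried the Cre allele and 1 floxed allele as well, although the study elsewhere writes its controls at this age as ShhCre/+ without naming a floxed allele. The Cre allele stands in place of 1 copy of Shh in every group. Shh-Cre acts in epithelial cells, whereas the RNA came from the whole organ. The study combined mutants from several litters in its statistics, and whether a sample at 14.5 dpc was a single embryo is not stated, so the spread between samples is that of the samples as labelled.

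Values are normalised read counts, that is, the reads of a gene after scaling each sample by its size factor. They summed to between 27727202 and 29611064 per sample, and replicates of a group correlated at 0.981 to 0.995 across genes after log2 transformation. The deleted genes themselves were not clearly lower in whole lungs. Rptor ranged from 2197 to 2298 in controls and from 1986 to 2442 in Rptor-deficient lungs, Tfam from 1057 to 1185 and from 939.9 to 1107, and Cox10 from 753 to 824 and from 743 to 829, so that these values do not check the labels. Among Cox10 libraries, deficient replicate 3 stood apart from the other libraries. Its 8 endothelium markers summed to 40264 normalised reads, against 27671 and 25246 in the other deficient lungs. The main Cox10 counts and differences are therefore also given without it. Rptor-deficient replicate 1 stood apart in part as well. Its chi-square per gene was 22.3 and 27.3 against the other deficient lungs, which gave 12.3 between them (sampling noise alone gives about 1), and its epithelium markers summed to 19672, against 24181 and 26798.

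To ask how collagen expression changed, each deficient group was set against the littermate controls of its line. In the Rptor line most collagen genes rose. As a share of all normalised reads, the 36 genes took 1.17%, 1.12% and 1.24% in control lungs and 2.17%, 2.11% and 2.07% in Rptor-deficient lungs. The lowest deficient value lay well above the highest control value, and the mean share was 1.8 times that of controls. A total of 25 of 36 genes were higher and 3, Col4a6, Col27a1 and Col8a1, were lower at a limma adjusted p below 0.05, whereas 16.6% of all 14940 genes tested were higher and 18.2% were lower. Col8a1 passed the filter on low values in this line through its control samples alone, so that 2 genes are lower without it. With deficient replicate 1 left out, 24 genes were higher and 4 lower, beside 16.9% and 18.9% of all genes. Col24a1 lost its call and Col22a1 gained one. Fibrillar chains alone took 0.678%, 0.657% and 0.771% in control lungs and 1.48%, 1.41% and 1.38% in Rptor-deficient lungs. Values of the 2 groups did not overlap for 26 genes higher in deficient lungs and 3 lower (24.3% and 26.0% of all genes). The difference between groups is given as log2 fold change (log2FC), deficient minus control, of values to which 1 was added. It was above 0 for 30 of 36 genes (51.0% of all genes), and its median was 0.70, against 0.0083 over all genes tested. In whole lungs, fewer cells of a type and less RNA per cell cannot be told apart, and the same holds for more cells and more RNA.

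Fewer collagen genes passed the threshold in the other lines. In the Tfam line the 36 genes took 1.18%, 1.42% and 1.27% in control lungs and 1.48%, 1.29% and 1.31% in Tfam-deficient lungs, and the groups overlapped. A total of 2 of 36 genes (Col14a1 and Col26a1) were higher and 3 (Col4a4, Col4a6 and Col22a1) were lower, beside 2.03% and 2.63% of all 15053 genes tested, and the median log2FC was 0.046. Groups were separate for 8 genes with higher and 6 with lower deficient values (10.9% and 11.8% of all genes), and 22 of 36 log2FC values were above 0 (50.3%). Cox10 shares were 1.13%, 0.969% and 1.03% in control lungs and 1.20%, 1.03% and 1.49% in Cox10-deficient lungs, with deficient replicate 3 the highest of the 6. No collagen gene passed the threshold in the Cox10 line by limma, where 0.141% of 14937 genes tested were higher and 0.335% were lower, and 9 of 36 had an unadjusted p below 0.05. Groups were separate for 3 genes with higher and 2 with lower deficient values (10.6% and 10.8% of all genes), and 26 of 36 log2FC values were above 0 (50.4%). Without deficient replicate 3 these counts were 3, 6 and 22, beside 15.9%, 16.5% and 50.7% of all genes. In that fit 3 of 36 genes were lower, Col4a6 (limma adjusted p = 0.00455), Col4a5 (0.0284) and Col22a1 (0.0404), none was higher, and 1.2% of all genes were lower and 0.482% higher. The median over the 36 genes was 0.17 with all samples, and 0.083 without deficient replicate 3.

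**Figure D1:**
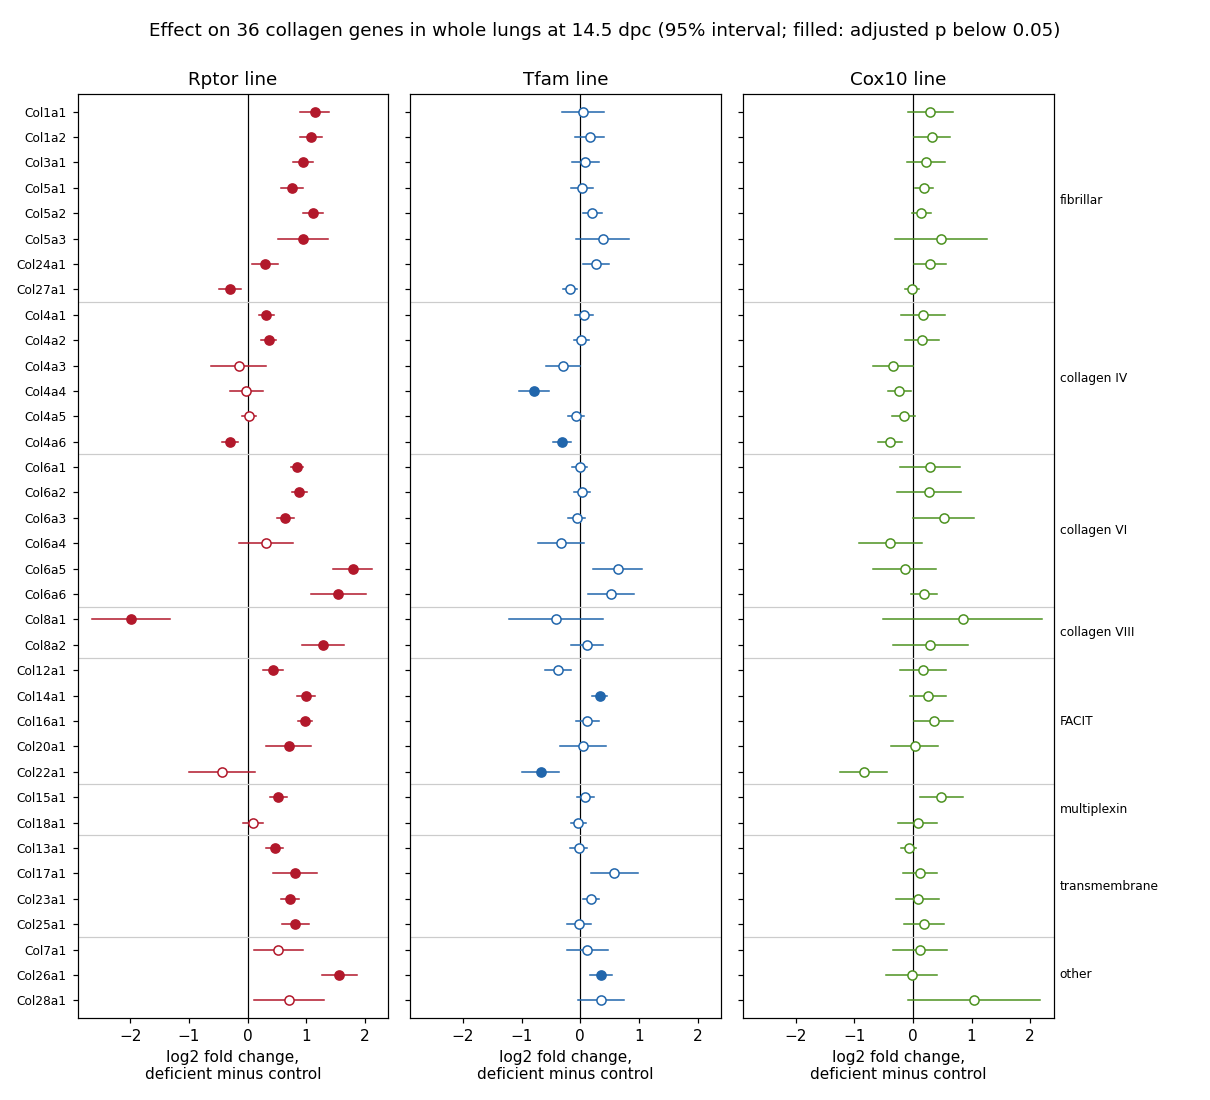
Each row is 1 of the 36 collagen genes, grouped by class, and each panel is 1 line. The horizontal axis is the log2FC (deficient minus control, n = 3 against 3), with a 95% interval as a bar, and a filled symbol marks a limma adjusted p below 0.05. Filled symbols number 28 for Rptor, 5 for Tfam and none for Cox10.

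**Figure D2:**
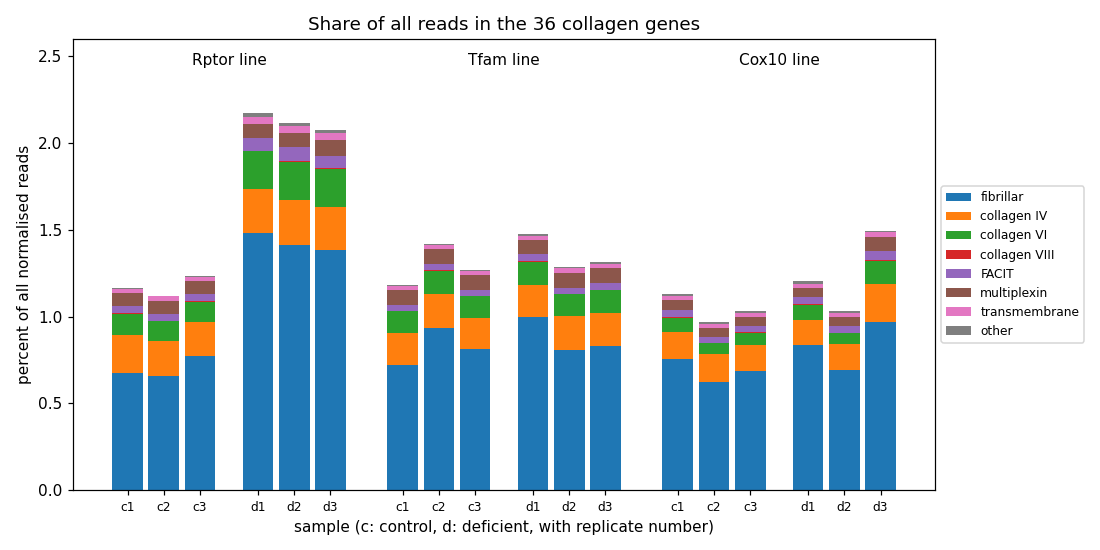
Stacked bars give the percentage of all normalised reads that fell on the 36 collagen genes in each of the 18 samples, coloured by class. The 3 Rptor-deficient samples reach 2.07% to 2.17%, above every other sample, and fibrillar chains make up most of each bar.

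Markers of other cell types moved as well in the Rptor line, where 16.6% of all genes were higher and 18.2% were lower. The 10 epithelium markers summed to 51298 to 57912 in control lungs and 19672 to 26798 in Rptor-deficient lungs, and 10 of 10 were lower. The 10 lung mesenchyme markers summed to 63137 to 65601 in control lungs and 76041 to 82429 in Rptor-deficient lungs. Of these, 4 of 10 were higher (Pdgfra, Pdgfrb, Tcf21 and Vim) and none was lower. Endothelium markers were higher for 6 of 8, mesothelium markers for 4 of 5 and macrophage markers for 7 of 7, while 5 of 8 smooth muscle markers were lower and 1 was higher. The other mesothelium marker went the opposite way, with a log2FC of -0.93 and no call. Of the cartilage markers 3 of 6 tested were lower, or 2 of 5 without Matn3, which passed the filter on low values through its controls alone. Of the neuron and glia markers 1 of 6 was lower, near the share of all genes. No marker of any list was at 0 in all samples of a line. Epithelium markers of the Tfam line were lower for 4 of 10, smooth muscle markers for 5 of 8, cartilage markers for 1 of 5 tested and neuron and glia markers for 1 of 6, and no marker of the other lists passed the threshold. In that line 2.03% of all genes were higher and 2.63% were lower. Of the epithelium markers 1 of 10 in the Cox10 line was lower and no other marker passed, beside 0.141% of all genes higher and 0.335% lower. Without deficient replicate 3, 9 of 10 epithelium markers and 1 of 8 smooth muscle markers were lower there and 1 of 10 mesenchyme markers was higher. In that fit 0.482% of all genes were higher and 1.2% were lower. The part of these shifts in the collagen results was not tested. When each sample was scaled so that the mean log2 value of the 10 mesenchyme markers was equal, a setting chosen after seeing the data, the median of all genes in the Rptor line moved to -0.35. In that scale 18 collagen genes were higher and 7 were lower, in place of 25 and 3, beside 4.47% and 54.6% of all genes, and their median was 0.35.

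Fibrillar chains rose together in Rptor-deficient lungs. Of 8 chains, 7 were higher, with log2FC values of 0.30 to 1.14, and Col27a1 was lower, beside 16.6% and 18.2% of all genes. Col3a1, the only chain of collagen III, had normalised read counts of 74800.4, 72642 and 82719.8 in control lungs and 148422, 142802 and 151504 in Rptor-deficient lungs. Every deficient value exceeded every control value, with a log2FC of 0.95 (SE 0.074; limma adjusted p = 9.17e-05). Col1a1, which encodes the alpha-1 chain of collagen I, had 46440.3, 44657 and 58069 in control lungs and 119381, 108703 and 99982 in Rptor-deficient lungs. Its groups did not overlap either, and the log2FC was 1.14 (SE 0.11; limma adjusted p = 0.000247). Col1a2, the partner chain of Col1a1, had 45337, 46222 and 53147 in control lungs and 108371, 100095 and 96422 in Rptor-deficient lungs, a log2FC of 1.08 (SE 0.082; limma adjusted p = 8.18e-05). The collagen I chains thus rose by similar amounts.

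Collagen V joins collagen I in mixed fibrils and limits their width. Col5a2 had 14560, 14508 and 16861 in control lungs and 35215, 31327 and 32620.5 in Rptor-deficient lungs. The groups were well apart, and the log2FC was 1.11 (SE 0.076; limma adjusted p = 5.17e-05). Col5a1 had 13264, 12088 and 12863 in control lungs and 24259.9, 20619 and 19975 in Rptor-deficient lungs, with no overlap and a smaller log2FC of 0.76 (SE 0.079; limma adjusted p = 0.000359). Col5a3, a much rarer chain, had values of 35.8 to 42.9 in controls and 65.4 to 84.6 in deficient lungs. Col24a1 rose by 0.30, just past the threshold (limma adjusted p = 0.0444), and lost the call with the replicate number as a block (limma adjusted p = 0.0532) and whenever any of the 6 samples was left out. Relative to mesenchyme markers it was -0.059. Groups were separate for Col24a1 in the other lines too, with log2FC values of 0.27 in Tfam-deficient lungs (limma adjusted p = 0.189) and 0.29 in Cox10-deficient lungs (limma adjusted p = 0.362, and 0.37 without deficient replicate 3), neither past the threshold.

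Col27a1, a fibril-forming chain outside the collagen I family, moved the other way. Its values were 4431, 3646 and 3945 in control lungs and 3408, 3355 and 3008 in Rptor-deficient lungs. All deficient values lay below the lowest control, with a log2FC of -0.30 (SE 0.082; limma adjusted p = 0.0231). The call was lost without control replicate 1 (limma adjusted p = 0.0754), control replicate 3 (0.0585) or deficient replicate 3 (0.0698).

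Chains of collagens III and I were the most abundant collagen transcripts in Rptor control lungs. Per kilobase of the longest protein-coding transcript, these held 13789 ± 954 reads of Col3a1 (SD, n = 3), 9019 ± 799.6 of Col1a2 and 8385 ± 1228 of Col1a1. Levels of Col1a2 and Col1a1 did not differ beyond their spread. Col4a1 followed with 5535 ± 247 reads per kilobase, and Col18a1 (3333 ± 108), Col6a2 (3281 ± 132) and Col6a1 (3008 ± 12.2) came next. Levels of Col18a1 and Col6a2 differed by less than their spread. In Cox10 control lungs Col3a1 was again the highest and Col4a1 the fourth. Between them Col1a2 (8436 ± 1060) and Col1a1 (8014 ± 1085) did not differ beyond their spread. In Tfam control lungs Col1a1 (12909.9 ± 2933) and Col3a1 (12834 ± 1242) could not be ordered. The fibrillar chain Col5a3 (6.35 ± 0.593) and the collagen VIII chain Col8a1 (5.79 ± 1.12) had the lowest levels in Rptor controls and did not differ beyond their spread. The tables were scaled line by line, so levels are compared within a line only.

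None of the 8 fibrillar chains passed the threshold in the Tfam line, where 2.03% of all genes were higher and 2.63% were lower. Col1a1 had 65546, 96606 and 67515 in control lungs and 95396, 70856 and 69685 in Tfam-deficient lungs, with 1 high sample in each group, and the log2FC was 0.047 (95% interval -0.31 to 0.40). Col1a2 had 42736, 57574 and 52549 in control lungs and 61105, 52740 and 55767 in Tfam-deficient lungs, a log2FC of 0.16 (95% interval -0.085 to 0.40). Col3a1 had 63447, 75000.4 and 75785 in control lungs and 84861, 71168 and 70739 in Tfam-deficient lungs, a log2FC of 0.081 (95% interval -0.15 to 0.31). The upper bounds of these 3 intervals all lay below the rises measured in the Rptor line. Col5a2 did not overlap between groups, at 12843, 13769.8 and 13976 in control lungs and 17174, 14375 and 15368 in Tfam-deficient lungs, but its log2FC of 0.21 did not pass (limma adjusted p = 0.172).

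Col1a1 of the Cox10 line had 54055, 41196 and 47316 in control lungs and 59929.8, 46123 and 70949 in Cox10-deficient lungs, Col1a2 had 50648, 39316 and 45381 in control lungs and 57771, 47503 and 63907 in Cox10-deficient lungs, and Col3a1 had 76946, 68515 and 71249 in control lungs and 82660, 70346 and 103398 in Cox10-deficient lungs. In each case the groups overlapped and deficient replicate 3 was the highest of the 6 samples. Log2 fold changes were 0.30 (95% interval -0.080 to 0.68), 0.32 (0.014 to 0.62) and 0.23 (-0.096 to 0.55). Without that sample they were 0.15, 0.22 and 0.080.

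**Figure D3:**
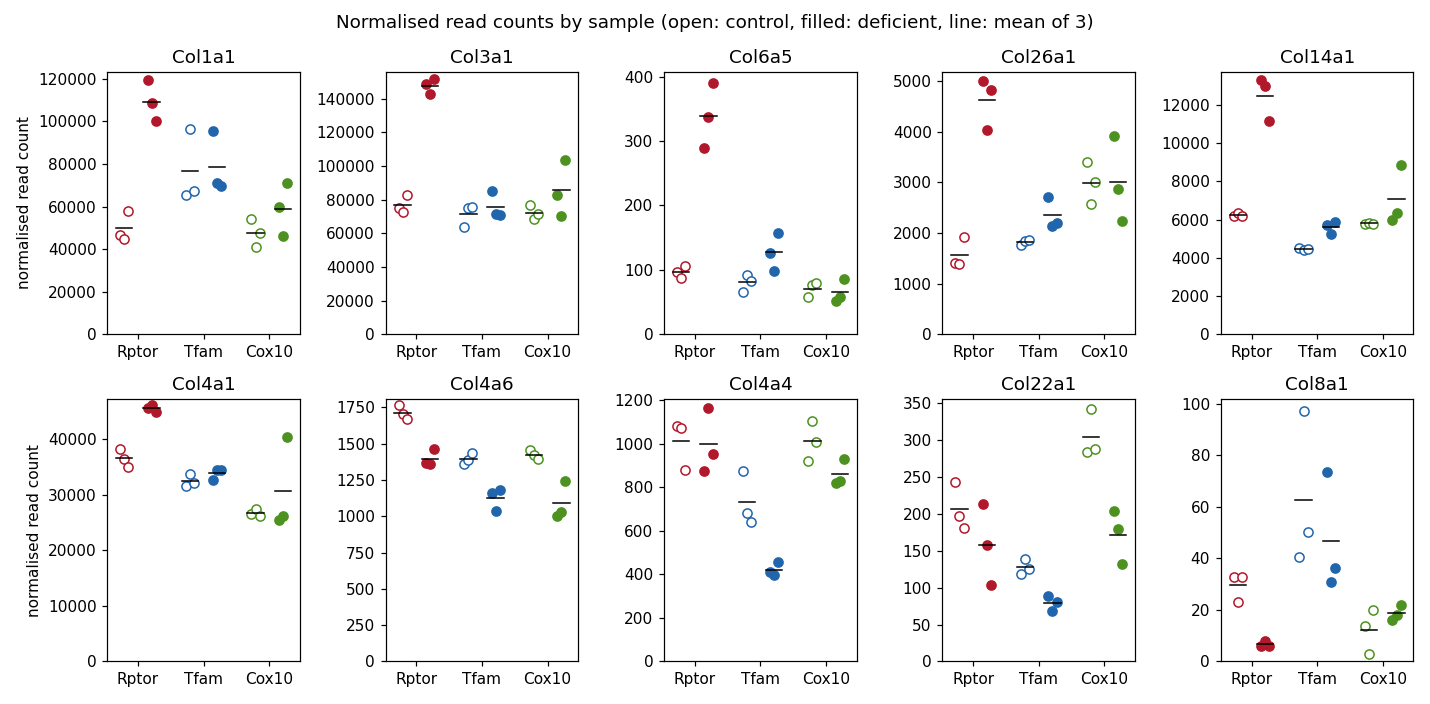
Each point is the normalised read count of 1 sample for 10 of the named collagen genes (open, control; filled, deficient; bar, mean of 3), with the vertical axis starting at 0. Rptor-deficient lungs stand apart from their controls for Col1a1, Col3a1, Col6a5, Col26a1 and Col14a1, Col4a6 is lower in deficient lungs of each line, and Col4a4 is lower in the Tfam line, where its log2FC is -0.79.

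The stretches upstream of some of these genes are shown because the genes rose or fell together in the same lungs. A promoter window was found in the RefSeq table (GRCm38.p6) for 29 of 36 genes. Col1a1, Col4a3, Col5a2, Col12a1, Col14a1, Col22a1 and Col26a1 had no entry. The table gives the starts of single RefSeq transcripts, and for 11 of 29 genes a window ends where the gene begins in RefSeq. For the other 18 the start lies inside the RefSeq gene, by 1820 bases for Col6a5 and 1403 for Col27a1. The 250 bases before the start are printed for Col3a1, Col6a2 and Col8a2, which rose, and for Col4a6 and Col8a1, which were lower in the Rptor line, read 5′ to 3′ on the strand of the gene. These windows end where the gene begins, except that of Col4a6, which holds its first 19 bases. Capitals mark GGGCGG, the core of a GC box, on the strand shown or on the other strand.
Col3a1 (chr1:45311288-45311537, plus strand): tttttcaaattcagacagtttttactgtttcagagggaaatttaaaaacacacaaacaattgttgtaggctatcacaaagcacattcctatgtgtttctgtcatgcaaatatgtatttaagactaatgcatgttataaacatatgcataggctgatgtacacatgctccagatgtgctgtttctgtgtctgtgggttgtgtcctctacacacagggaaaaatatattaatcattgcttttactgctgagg
Col6a2 (chr10:76623631-76623880, minus strand): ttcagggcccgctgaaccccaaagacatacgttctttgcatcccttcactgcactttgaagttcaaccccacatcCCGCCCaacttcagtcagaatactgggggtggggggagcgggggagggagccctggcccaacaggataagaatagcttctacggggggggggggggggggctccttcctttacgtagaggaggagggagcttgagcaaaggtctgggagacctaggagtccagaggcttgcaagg
Col8a2 (chr4:126286544-126286793, plus strand): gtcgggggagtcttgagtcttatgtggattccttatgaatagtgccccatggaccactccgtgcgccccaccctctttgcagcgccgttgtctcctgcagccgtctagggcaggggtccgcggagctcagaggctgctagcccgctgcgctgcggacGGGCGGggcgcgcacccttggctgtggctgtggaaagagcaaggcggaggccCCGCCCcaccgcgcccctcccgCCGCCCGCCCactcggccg
Col4a6 (chrX:141474077-141474326, minus strand): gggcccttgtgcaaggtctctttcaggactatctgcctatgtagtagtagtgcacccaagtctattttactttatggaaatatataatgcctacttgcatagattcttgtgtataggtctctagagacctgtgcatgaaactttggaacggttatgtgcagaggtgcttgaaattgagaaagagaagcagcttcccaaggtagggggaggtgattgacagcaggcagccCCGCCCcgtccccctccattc
Col8a1 (chr16:57754738-57754987, minus strand): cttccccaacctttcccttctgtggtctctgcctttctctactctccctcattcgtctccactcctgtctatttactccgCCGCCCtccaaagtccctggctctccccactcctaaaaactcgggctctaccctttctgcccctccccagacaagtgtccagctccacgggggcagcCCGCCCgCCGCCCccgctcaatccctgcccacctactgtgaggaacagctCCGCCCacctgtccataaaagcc

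Besides the GC box, the CCAAT box was searched by the letters CCAAT and the TATA box by the letters TATAAA, each on both strands, and matches of different motifs may share bases. GGGCGG was found in the 250 bases of 18 of 29 collagen genes (62.1%) and of 32.7% of all 32851 windows in the table. It occurred 4 times each before Col8a1 and Col8a2, 1 time each before Col6a2 and Col4a6, and not in the window of Col3a1. Of the 20 genes with a window that were higher in Rptor-deficient lungs, 11 held it. CCAAT was present for 11 of 29 collagen genes (37.9%, against 33.8% of all windows) and TATAAA for 3 of 29 (10.3%, against 12.4%). None of the 5 windows shown held CCAAT. These matches describe letters in a window and not binding.

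Chains of collagen IV, the basement membrane network, did not move as a group. In Rptor-deficient lungs 2 of 6 chains were higher, 1 was lower and 3 did not pass, beside 16.6% of all genes higher and 18.2% lower. The median log2FC of the 6 chains was 0.0029. Col4a1 and Col4a2 make up the form of collagen IV found in nearly all basement membranes. Col4a1 had 38331, 36445 and 35074 in control lungs and 45574, 46188 and 44974 in Rptor-deficient lungs. The groups were separate and the rise was small, with a log2FC of 0.32 (SE 0.057; limma adjusted p = 0.00384). Col4a2 had 18521, 16807 and 16599 in control lungs and 22220.4, 22296 and 21995 in Rptor-deficient lungs, a log2FC of 0.36 (SE 0.058; limma adjusted p = 0.00223). In the scale that equalises mesenchyme markers their log2FC values turned to -0.043 and -0.00095, with no call, which lie above the median of all genes in that scale.

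Col4a1 (chr8:11198423-11312889, minus strand) and Col4a2 (chr8:11312805-11449287, plus strand) lie head to head on GRCm38, and their exons in GENCODE overlap by 22 bases on opposite strands. Col4a5 (chrX:141475370-141689236, plus strand) and Col4a6 (chrX:141165403-141474095, minus strand) lie head to head as well, as do Col4a3 (chr1:82586921-82722059, plus strand) and Col4a4 (chr1:82448419-82587034, minus strand). Whether reads were counted by strand is not stated, and the shared exon bases make up 0.295% of Col4a1 and 0.332% of Col4a2.

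Col4a6, which assembles with Col4a5, was lower in deficient lungs of the Rptor and Tfam lines. Rptor values were 1768, 1704 and 1668 in control lungs and 1365, 1359 and 1464 in Rptor-deficient lungs, a log2FC of -0.30 (SE 0.060; limma adjusted p = 0.00646). Tfam values were 1356, 1386 and 1434 in control lungs and 1158, 1034 and 1179 in Tfam-deficient lungs, a log2FC of -0.31 (SE 0.068; limma adjusted p = 0.0259). Cox10 values of 1458, 1418 and 1396 in control lungs and 1003, 1028 and 1246 in Cox10-deficient lungs did not overlap either, but the log2FC of -0.39 did not pass (limma adjusted p = 0.132). Without deficient replicate 3 it was -0.49 (limma adjusted p = 0.00455). The Tfam call depended on single samples. It held without control replicate 3 and was lost without any 1 of the other 5, with limma adjusted p-values of 0.0501 to 0.120. The 10 epithelium markers were lower beside it, in all 10 cases in the Rptor line and in 4 in the Tfam line.

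Col4a4, a chain of the specialised collagen IV network with Col4a3 and Col4a5, fell in the Tfam line. Values were 876, 684 and 640.2 in control lungs and 409, 395 and 456 in Tfam-deficient lungs, with every deficient value below the lowest control. The log2FC was -0.79 (SE 0.11; limma adjusted p = 0.00259), and it stayed past the threshold whichever sample was left out. Col4a4 of the Rptor line had 1082, 1075 and 879 in control lungs and 874, 1168 and 953 in Rptor-deficient lungs, and the groups overlapped (log2FC -0.024, 95% interval -0.30 to 0.26). The difference between the lines was 0.77 (SE 0.18; limma adjusted p = 0.0105). Cox10 values were 923, 1107 and 1008 in control lungs and 819, 832 and 932 in Cox10-deficient lungs, a log2FC of -0.23 that did not pass (limma adjusted p = 0.343) and of -0.29 without deficient replicate 3 (limma adjusted p = 0.142). Col4a3, its neighbour, had log2FC values of -0.15, -0.30 and -0.33 in the 3 lines, none past the threshold, and of -0.41 in the Cox10 line without deficient replicate 3. Col4a3 shares 5.65% of its exon bases with a transcript on the opposite strand.

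Col4a1 and Col4a2 did not pass in the Tfam and Cox10 lines. Tfam log2FC values were 0.063 (95% interval -0.084 to 0.21) for Col4a1 and 0.016 (-0.11 to 0.14) for Col4a2. Col4a1 had 26582, 27476 and 26154 in control lungs and 25432, 26170.4 and 40326 in Cox10-deficient lungs. Cox10-deficient replicate 3 alone lay above the controls, and the log2FC was 0.16 with it and -0.051 without it. For Col4a2 the values were 0.15 and -0.012.

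Collagen VI, whose chains form beaded filaments around cells, rose in the Rptor line for 5 of 6 chains, beside 16.6% of all genes. Col6a1 and Col6a2, the common chains, had log2FC values of 0.84 and 0.88, and Col6a3 had 0.65. The rarer chains Col6a5 and Col6a6, which can take the place of Col6a3, had the highest values of the class. Col6a5 had 96.7, 87.9 and 106 in control lungs and 289.6, 338 and 390.3 in Rptor-deficient lungs. The groups were far apart, and the log2FC of 1.79 (SE 0.15; limma adjusted p = 0.00012) was the largest of the 36 genes. Col6a6 had 743, 862 and 957 in control lungs and 3539, 1867 and 2302 in Rptor-deficient lungs. Deficient lungs were all higher but spread widely, with a log2FC of 1.54 (SE 0.21; limma adjusted p = 0.00098). Replicate 1 was the highest of them, and without it the log2FC was 1.29 (limma adjusted p = 0.000163). Col6a5 of the Tfam line had 66.0, 92.0 and 83.0 in control lungs and 126, 98.3 and 156 in Tfam-deficient lungs, without overlap but not past the threshold (log2FC 0.64; limma adjusted p = 0.0931). Col6a6 had a log2FC of 0.52 in the Tfam line (limma adjusted p = 0.143). Cox10-deficient lungs gave -0.14 and 0.19, and neither passed, with -0.34 and 0.18 without deficient replicate 3. Col6a4 did not pass in any line.

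Collagen VIII is a short-chain network collagen of 2 chains. Col8a2 had 509, 386 and 625 in control lungs and 1132, 1206 and 1297 in Rptor-deficient lungs, with no overlap, and rose with a log2FC of 1.28 (SE 0.16; limma adjusted p = 0.000656). Col8a1 had 32.9, 23.0 and 32.8 in control lungs and 6.12, 7.92 and 5.93 in Rptor-deficient lungs, where all deficient values lay below the controls. These are low counts, and since the gene passed the filter through its controls its log2FC of -1.99 is given as a description. Neither passed in the Tfam line, with log2FC values of 0.12 for Col8a2 and -0.41 for Col8a1, and in the Cox10 line they were 0.30 and 0.85, or 0.30 and 0.74 without deficient replicate 3.

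Of the FACIT collagens 4 of 5 rose in the Rptor line, where 16.6% of all genes were higher. Col14a1, which coats collagen fibrils, had 6196, 6343 and 6175 in control lungs and 13290.4, 13017 and 11172 in Rptor-deficient lungs. The groups were far apart, with a log2FC of 1.00 (SE 0.070; limma adjusted p = 5.75e-05). It was 1 of 2 collagen genes that also rose in the Tfam line, with 4499.7, 4385 and 4482 in control lungs and 5738, 5227 and 5852 in Tfam-deficient lungs and a log2FC of 0.33 (SE 0.059; limma adjusted p = 0.00896). That call was lost without Tfam-deficient replicate 3 (limma adjusted p = 0.0506) and with all 18 samples in one fit (limma adjusted p = 0.109). Col14a1 of the Cox10 line had 5767, 5841 and 5780.4 in control lungs and 5962, 6346 and 8875 in Cox10-deficient lungs, without overlap but not past the threshold (log2FC 0.26; limma adjusted p = 0.442). Its log2FC there was 0.086 without deficient replicate 3. Col16a1 (0.98), Col20a1 (0.70) and Col12a1 (0.43) rose on the log2 scale in the Rptor line.

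Col22a1, a FACIT collagen known from tissue junctions such as that of muscle and tendon, was lower in the Tfam line. It had 119, 138 and 125 in control lungs and 89.3, 68.5 and 81.1 in Tfam-deficient lungs, a log2FC of -0.68 (SE 0.15; limma adjusted p = 0.0237). The call was lost with the replicate number as a block (limma adjusted p = 0.0504) and without control replicate 1 (0.0642), control replicate 2 (0.085), deficient replicate 2 (0.0879) or deficient replicate 3 (0.0774). With all 18 samples in one fit it was lost as well (limma adjusted p = 0.109). Cox10 values were 284, 342 and 288 in control lungs and 205, 180 and 131 in Cox10-deficient lungs, where all deficient values lay below the controls. The log2FC there was -0.84 (limma adjusted p = 0.108), and -0.66 (limma adjusted p = 0.0404) without deficient replicate 3. Its groups overlapped in the Rptor line, at 243, 197 and 181 in control lungs and 213, 158 and 104 in Rptor-deficient lungs (log2FC -0.43, limma adjusted p = 0.205). Within each replicate number the deficient value was the lower one, but Col22a1 did not pass there with the replicate number as a block. Without Rptor-deficient replicate 1 it was lower there too (-0.68, limma adjusted p = 0.0317). Smooth muscle markers were lower in 5 of 8 cases in the Tfam line, in 5 of 8 in the Rptor line and in 0 of 8 in the Cox10 line. Without Cox10-deficient replicate 3, 1 of 8 was lower there, and the part of these markers was not tested.

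Col26a1, a secreted collagen with an EMI domain, had 1414, 1382 and 1914 in control lungs and 4999.9, 4027 and 4832 in Rptor-deficient lungs, a log2FC of 1.57 (SE 0.13; limma adjusted p = 0.000137). It rose in the Tfam line too, with 1757, 1846 and 1861 in control lungs and 2716, 2138 and 2186 in Tfam-deficient lungs and a log2FC of 0.36 (SE 0.086; limma adjusted p = 0.0413). That call was lost without control replicate 1 (limma adjusted p = 0.163), control replicate 2 (0.0836), deficient replicate 1 (0.0945) or deficient replicate 3 (0.0685). It was also lost with no filter (limma adjusted p = 0.0573) and with all 18 samples in one fit (limma adjusted p = 0.317). Cox10 values of 3397, 2571 and 3008 in control lungs and 3915, 2876 and 2242 in Cox10-deficient lungs overlapped, and the log2FC was -0.019 with and 0.17 without deficient replicate 3. In the main fits Col4a6, Col14a1 and Col26a1 were the 3 collagen genes called in 1 direction by both the Rptor and the Tfam comparison.

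All 4 transmembrane collagens rose in the Rptor line, where 16.6% of all genes were higher. Col13a1, which sits at cell adhesions, had 3245, 2918 and 3079.5 in control lungs and 4474, 4086 and 4146 in Rptor-deficient lungs, a log2FC of 0.46 (SE 0.061; limma adjusted p = 0.000999). Col17a1, the hemidesmosome collagen of epithelia, Col23a1 and Col25a1 had log2FC values of 0.81, 0.72 and 0.82. Of the multiplexins, found in basement membrane zones, Col15a1 rose by 0.53 and Col18a1 did not pass (log2FC 0.089, 95% interval -0.084 to 0.26). Col7a1, the chain of anchoring fibrils, and Col28a1 missed the threshold (limma adjusted p = 0.0539 and 0.0675). With the replicate number as a block Col28a1 passed (limma adjusted p = 0.0238).

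To ask whether the lines differed, the effect in 1 line was subtracted from that in another. The Rptor effect was more positive than the Tfam effect for 18 of 36 collagen genes, whereas this held for 4.82% of 14550 genes tested in all 3 lines. None was smaller at the threshold (6.35% of all genes). Against the Cox10 line the Rptor effect was more positive for 13 of 36 (3.27% of all genes) and smaller for 1 (4.21% of all genes), Col8a1, which had passed the filter in the Rptor line through its controls. For 13 genes the Rptor effect differed from both. Between the Tfam and Cox10 lines limma called none of 36 collagen genes (0.0481% and 0.00687% of all genes in the 2 directions), and 5 of 36 had an unadjusted p below 0.05. Col5a2 had the smallest adjusted p in each comparison with the Rptor line. Its difference was 0.91 (SE 0.11; limma adjusted p = 7.9e-05) against Tfam and 0.97 (SE 0.11; limma adjusted p = 5.74e-05) against Cox10. For Col26a1 these were 1.21 (SE 0.23; limma adjusted p = 0.00353) and 1.59 (SE 0.23; limma adjusted p = 0.000531). Col6a5 gave 1.15 (SE 0.29; limma adjusted p = 0.0185) and 1.93 (SE 0.29; limma adjusted p = 0.000629). These differences all had the same direction, with the more positive value in the Rptor line. Col13a1 gave 0.49 (SE 0.088; limma adjusted p = 0.00208) and 0.53 (SE 0.088; limma adjusted p = 0.00124). Differences for Col5a1 were 0.73 (SE 0.12; limma adjusted p = 0.00125) and 0.57 (SE 0.12; limma adjusted p = 0.00841), and those for Col1a2 were 0.92 (SE 0.17; limma adjusted p = 0.00309) and 0.76 (SE 0.17; limma adjusted p = 0.0122). Without Tfam control replicate 2 the count against Tfam fell from 18 to 11, while the share of all genes called went from 11.2% to 5.87%. Without Cox10-deficient replicate 3 the count against Cox10 went from 14 to 19 (all genes, 7.48% to 12.5%), and the differences of Col5a2, Col26a1, Col6a5, Col13a1, Col5a1 and Col1a2 were 1.01, 1.39, 2.13, 0.54, 0.59 and 0.85.

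Chains of the same collagen were then set against each other within each sample, since a ratio of 2 genes depends little on the size factor. The exception is a gene with values near 1, which was added to each value before the ratio was taken. With 3 samples against 3, an exact permutation test cannot give a p below 0.1, so these are descriptions. The 8 ratios did not overlap between groups for 4 pairs of the Rptor, 3 of the Tfam and 2 of the Cox10 line, or 5 of the Cox10 line without deficient replicate 3. Among single genes the groups were separate, with higher or with lower deficient values, for 24.3% and 26.0% of all genes with Rptor, 10.9% and 11.8% with Tfam and 10.6% and 10.8% with Cox10. Without Cox10-deficient replicate 3 the Cox10 shares were 15.9% and 16.5%, since groups separate more easily with fewer samples. The log2 ratio of Col1a1 to Col1a2 changed by 0.066 (exact permutation p = 0.3) in the Rptor line and that of Col4a1 to Col4a2 by -0.042 (exact permutation p = 0.2), both with overlapping groups. Col5a1 relative to Col5a2 was -0.13, -0.26 and -0.39 in control lungs and -0.54, -0.60 and -0.71 in Rptor-deficient lungs, a change of -0.35 (exact permutation p = 0.1). Col8a1 relative to Col8a2 was separate as well, with the lower Col8a1 and the higher Col8a2 values given above both part of its change of -3.27. Without this pair, whose first gene passed the filter through its controls, 3 of 7 ratios were separate in the Rptor line. Col4a4 relative to Col4a3 overlapped in the Rptor and Cox10 lines and was lower without overlap in the Tfam line, with 1.67, 1.80 and 1.50 in control lungs and 1.10, 1.17 and 1.21 in Tfam-deficient lungs. Within each replicate number of the Rptor line, the deficient lung was higher for Col4a4 over Col4a3 and lower for Col4a1 over Col4a2, which was not tested.

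Col4a6 relative to Col4a5 was lower without overlap in each line. For the Rptor line the log2 ratio was -0.87, -0.96 and -0.94 in control lungs and -1.27, -1.23 and -1.25 in Rptor-deficient lungs, a change of -0.33 (exact permutation p = 0.1). The Tfam ratio changed by -0.24 (exact permutation p = 0.1). The Cox10 ratio was -1.11, -1.07 and -1.11 in control lungs and -1.35, -1.31 and -1.34 in Cox10-deficient lungs, a change of -0.23 (exact permutation p = 0.1), and replicate 3 was not apart from the other deficient lungs. Col6a3 relative to Col6a1 was lower in Rptor-deficient lungs, with a change of -0.19 (exact permutation p = 0.1), and higher in Cox10-deficient lungs, with a change of 0.23 (exact permutation p = 0.1). Without Cox10-deficient replicate 3 the Cox10 changes were -0.23 for Col4a6 over Col4a5 and 0.23 for Col6a3 over Col6a1.

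**Figure D4:**
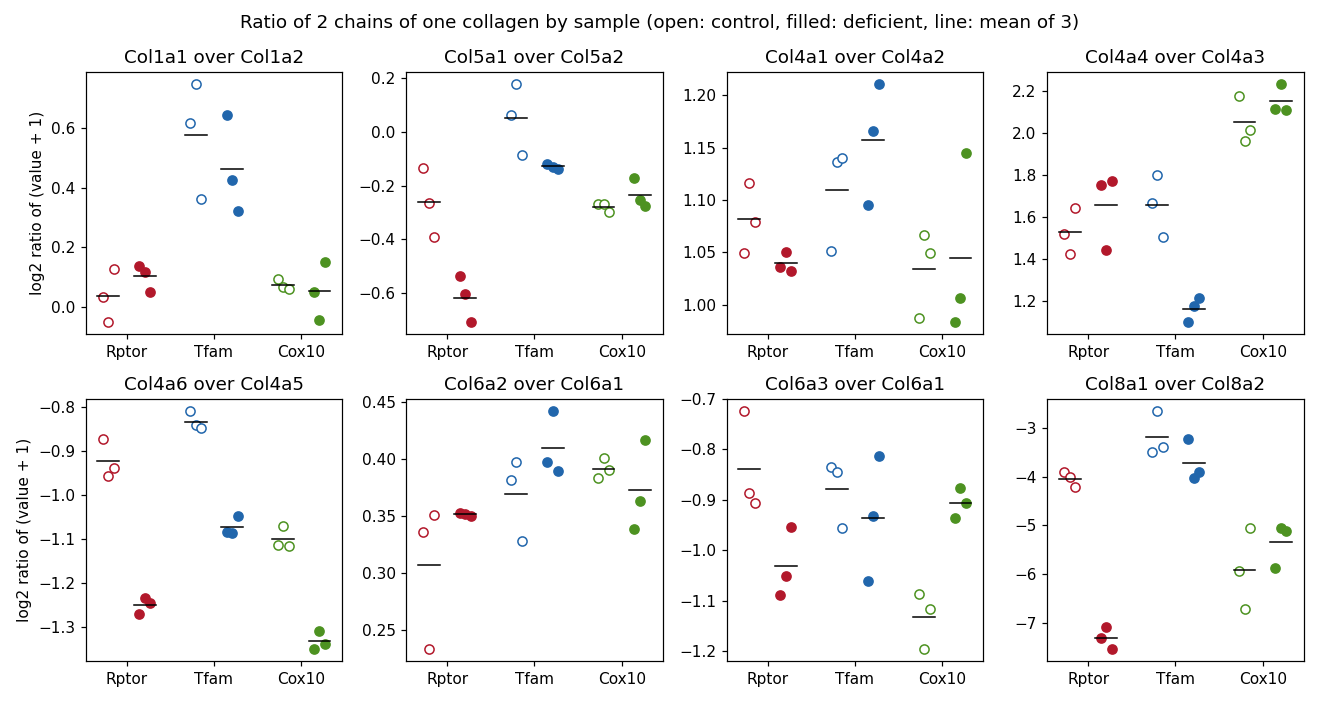
Each point is the log2 ratio of 2 chains of a collagen in 1 sample, from values to which 1 was added (open, control; filled, deficient; bar, mean of 3). The groups are separate in each line for Col4a6 over Col4a5. They are also separate for Col5a1 over Col5a2 in the Rptor and Tfam lines.

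Genes that make, bind and break down collagen were taken from lists chosen by role. In the Rptor line 33 of the 66 genes tested on these lists were higher and 7 were lower, beside 16.6% and 18.2% of all genes. In Tfam-deficient lungs 3 of 67 were higher and 3 were lower, beside 2.03% and 2.63% of all genes, and limma called none of 66 tested in Cox10-deficient lungs, with 13 at an unadjusted p below 0.05. Without Cox10-deficient replicate 3, 2 of 66 were lower, Fmod (-0.91) and Thbs1 (-0.62). Of 19 genes for hydroxylation and folding in the endoplasmic reticulum, 7 were higher and 2 were lower in Rptor-deficient lungs (median log2FC 0.14). Glt25d2, which adds galactose to hydroxylysine, had 65.8, 51.0 and 53.7 in control lungs and 171, 155 and 178 in Rptor-deficient lungs, a log2FC of 1.56 (SE 0.16; limma adjusted p = 0.000298). Fkbp14, a prolyl isomerase, and Leprel2, of the prolyl 3-hydroxylase family, rose by 0.79 and 0.57. Of 14 genes for propeptide cleavage and cross-linking, 8 were higher and none was lower (median 0.30). Adamts2, which cuts the N-terminal propeptide of fibrillar procollagens, had 610.3, 613 and 705 in control lungs and 1442, 1352 and 1328 in Rptor-deficient lungs, a log2FC of 1.10 (SE 0.080; limma adjusted p = 6.69e-05). Loxl1, a cross-linking oxidase, and Tll1, a propeptide-cutting protease, rose by 0.93 and 0.59.

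For the counts of the next 3 lists in the Rptor line, the shares of all genes are again 16.6% higher and 18.2% lower. Of the collagen receptors, 2 of 8 were higher, near that share, and none was lower. These were Ddr1 (0.57), a receptor kinase, and Mrc2 (0.42), which takes up collagen for breakdown. Of 11 genes tested for breakdown or its inhibition (Timp1, Timp2 and Timp3), 7 were higher and 1 was lower (median 0.53). The inhibitors Timp2 (0.37) and Timp3 were among the higher ones. The largest were Fap (1.05), a protease of activated fibroblasts, Timp3 (0.77), an inhibitor of metalloproteinases, and Ctsk (0.77), a collagen-cutting cathepsin. Among 14 proteins that bind fibrils, 9 were higher and 4 were lower (median 0.37). Lumican (Lum) had 1207, 1207 and 1651 in control lungs and 5133, 5294 and 4795 in Rptor-deficient lungs, a log2FC of 1.92 (SE 0.12; limma adjusted p = 3.06e-05), and Tnxb and Aspn rose by 1.76 and 1.61. Tfam-deficient lungs had 1 of 8 receptors higher, Itga2 (0.32), and 1 of 12 genes tested for breakdown or its inhibition lower, Mmp11 (-0.30). In that line 2.03% of all genes were higher and 2.63% were lower. Of the 14 fibril-binding proteins 2 were higher and 2 lower there, the lower ones being Fmod (-0.82) and Tnc (-0.77), while Lum was at 0.64. No gene for hydroxylation, folding, propeptide cleavage or cross-linking passed in the Tfam line.

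**Figure D5:**
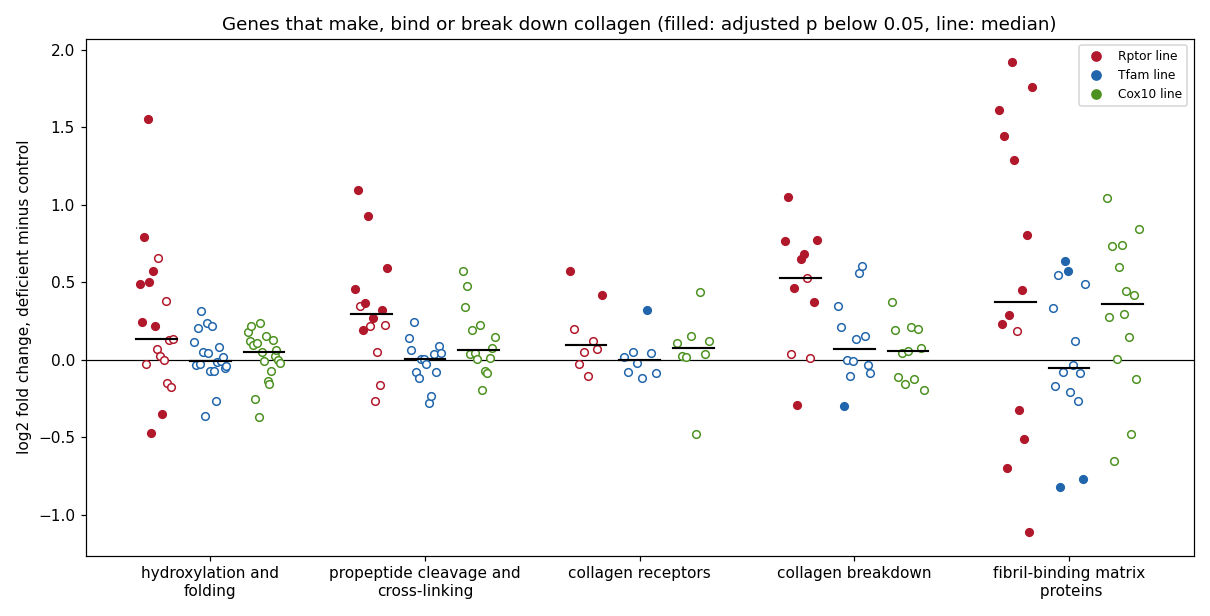
Each point is the log2FC (deficient minus control) of a gene that makes, binds or breaks down collagen, by list and line (filled, limma adjusted p below 0.05; bar, median). Filled points are most frequent in the Rptor line, where the fibril-binding proteins spread from -1.11 for Tnc to 1.92 for Lum.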

How the data were processed

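Whole lungs of embryos were collected at 14.5 dpc. The authors' methods name TRIzol, a column kit and a BGI sequencer, whereas according to the labels libraries followed an Illumina protocol after column extraction. The submitters' processing notes list Trim Galore, HISAT2, featureCounts, DESeq2 and mm10, without versions. The authors deposited, in a table for each line, a normalised signal for each sample, namely reads per gene divided by a size factor. In every sample 100% of values were whole multiples of a step of 0.978 to 1.02 (tolerance 0.01). Their log2 fold changes, p-values and adjusted p-values were not used. The 2 alternatives by count models on recovered reads were not run.

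Values were analysed as log2(value + 1), a scale on which changes of low genes appear smaller. Genes with a value of at least 10 in at least 3 of 6 samples were fitted line by line in limma 3.58.1 (R 4.3.3; lmFit, eBayes with a trend), two-sided, with Benjamini-Hochberg adjustment over all genes tested and a threshold of 0.05. Differences between lines were contrasts of contrasts in a model of all 18 samples and 6 groups on 14550 genes, in which the scale of a table cancels. Ratios were compared by exact permutation tests (scipy 1.17.1). The fits were tested on simulated data.

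The members and gene lists were chosen with earlier results of these data known. Named collagen genes are Col1a1, Col1a2, Col3a1, Col4a1 and Col4a2, in each line the 4 largest rises and 4 largest falls past the threshold, genes past it with the same sign in 2 lines, and the 6 with the smallest adjusted p for a difference between lines. Of each other list up to 3 genes past the threshold per line are named. Col5a3, Col24a1, Col4a3 and other chains given by a value in passing lie outside this rule and were picked after their values were seen.

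Replicate numbers come from sample titles. Samples of the same number deviated together in the Rptor line (correlations of 0.221, 0.330 and 0.259), so that the numbers were read as pairs there. The main fits nevertheless use no pairing in any line, and the replicate number enters only as a block in an alternative. In the Tfam line the correlations were -0.312, -0.207 and 0.151 and in the Cox10 line 0.447, 0.202 and 0.049, so that the samples share only a number. The chi-square per gene between replicates was at least 4.12, where sampling noise gives about 1. Promoter windows and gene positions are from RefSeq (GRCm38.p6), and strands, transcript lengths and exon overlaps are from GENCODE M21 (GRCm38). Alternatives were no filter or a mean of at least 50, a pseudocount of 0.1, library totals or a trimmed mean of M-values as scale, the replicate number as a block, Xist as a covariate, all 18 samples in one fit, each sample left out and, chosen after seeing the data, a GC and length correction and equal mesenchyme markers.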

Additional observations from a re-analysis of the deposited data

Results flagged for a closer look

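The effect of the deletion on collagen genes differed between lines. Differences in log2 fold change, Rptor line minus Tfam line, that passed the threshold of limma were 0.81 for Col12a1, 0.49 for Col13a1, 0.67 for Col14a1, 0.86 for Col16a1, 1.10 for Col1a1, 0.92 for Col1a2, 0.54 for Col23a1, 0.83 for Col25a1, 1.21 for Col26a1, 0.86 for Col3a1, 0.77 for Col4a4, 0.73 for Col5a1, 0.91 for Col5a2, 0.85 for Col6a1, 0.85 for Col6a2, 1.15 for Col6a5, 1.02 for Col6a6 and 1.16 for Col8a2. For Rptor line minus Cox10 line they were 0.53 for Col13a1, 0.74 for Col14a1, 0.62 for Col16a1, 0.84 for Col1a1, 0.76 for Col1a2, 0.64 for Col23a1, 0.62 for Col25a1, 1.59 for Col26a1, 0.72 for Col3a1, 0.57 for Col5a1, 0.97 for Col5a2, 1.93 for Col6a5, 1.36 for Col6a6 and -2.84 for Col8a1. All but that of Col8a1 were positive, and Col8a1 had passed the filter on low values in the Rptor line through its controls alone. Beside them, epithelium markers summed to 51298 to 57912 in control lungs and 19672 to 26798 in Rptor-deficient lungs, to 44662 to 46281 in control lungs and 32415 to 37205 in Tfam-deficient lungs and to 34842 to 35450 in control lungs and 22277 to 32962 in Cox10-deficient lungs. Their part in the differences was not tested. Groups of 3 samples are too small for a test of single outlying samples.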

How the results depend on the processing

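The number of collagen genes past the threshold in the Rptor line was 28 and lay between 25 and 29 under the 11 alternatives that kept all samples and was 26 to 28 when a sample was left out. Under the 11 alternatives 18 to 26 were higher and 2 to 7 were lower. The share of all genes called ranged there from 25.7% without a filter to 59.1% relative to mesenchyme markers, where 25 collagen genes were called. In the Tfam line it was 5, 1 to 7 when a sample was left out and 2 with all 18 samples in one fit, beside 4.66%, 2.41% to 7.46% and 2.74% of all genes. In the Cox10 line it was 0, 1 relative to mesenchyme markers, 3 with all 18 samples in one fit and 0 to 3 when a sample was left out, beside 0.475%, 0.91%, 2.25% and 0.0201% to 1.68% of all genes. For the Rptor line that share was 34.8% with all samples and 24.1% to 35.7% when a sample was left out, the highest being without deficient replicate 1. The count for the Rptor line against the Tfam line was 11 to 23 and that against the Cox10 line was 10 to 19 when a sample was left out (5.87% to 16.5% and 4.68% to 12.5% of all genes). Relative to mesenchyme markers these counts were 16 and 10 of 36, near the shares of all genes called in either direction, 37.7% and 31.3%. Relative to mesenchyme markers the median log2 fold change of the collagen genes came to 0.35 for Rptor, -0.0062 for Tfam and 0.081 for Cox10, with medians of all genes at -0.35, -0.052 and -0.082. Left-out samples gave medians of 0.013 to 0.097 in the Tfam line and 0.083 to 0.24 in the Cox10 line. Genes of the collagen pathway past the threshold in the Cox10 line numbered 0 to 2, and chain ratios without overlap 3 to 5 in the Tfam line and 2 to 5 in the Cox10 line, when a sample was left out. Groups separate more easily with a sample left out. Without Cox10-deficient replicate 3, 15.9% and 16.5% of all genes were separate with higher and with lower deficient values. The cause of these changes was not tested.

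The replicate number as a block was fitted in every line, although the numbers were read as pairs in the Rptor line only. With this block 28, 4 and 0 collagen genes passed in the Rptor, Tfam and Cox10 lines, beside 38.6%, 5.33% and 0.321% of all genes. Between the Rptor and Tfam, the Rptor and Cox10, and the Tfam and Cox10 lines 19, 16 and 0 differed, beside 15.9%, 10% and 0.0344%. In the Rptor line it changed the calls of Col24a1 and Col28a1 and no other. Pathway genes past the threshold with the block numbered 43, 9 and 0. In the Tfam line 1 control and in the Cox10 line 1 control lay closest to the deficient sample of its own number.

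Under alternatives that kept all samples, the called genes whose sign turned were Col24a1 (-0.059), Col4a1 (-0.043) and Col4a2 (-0.00095) of the Rptor line, relative to mesenchyme markers. That scale moves all genes of a line by about the same amount, to the medians given above, so that a rise smaller than this shift turns its sign by construction. In it Col1a1, Col4a2 and Col5a1 of the Tfam line were at -0.0062, -0.037 and -0.026. When a sample was left out, the log2 fold changes of 2, 9 and 12 of 36 collagen genes crossed 0 in the Rptor, Tfam and Cox10 lines. Among the genes named by rule these were, in the Tfam line, Col1a1 (-0.10 to 0.23), Col3a1 (-0.0046 to 0.13), Col4a2 (-0.0084 to 0.030), Col8a2 (-0.0042 to 0.22), Col13a1 (-0.095 to 0.015), Col5a1 (-0.047 to 0.10). In the Cox10 line they were Col4a1 (-0.051 to 0.28), Col4a2 (-0.012 to 0.24), Col6a5 (-0.34 to 0.0074), Col26a1 (-0.23 to 0.17), Col8a2 (-0.012 to 0.55), Col27a1 (-0.046 to 0.023), and in the Rptor line Col4a4 (-0.14 to 0.066). The 2 planned count tests on recovered reads were not run. With Xist as a covariate Col24a1 and Col27a1 of the Rptor line lost their calls (limma adjusted p = 0.0813 and 0.0503). Low counts limit the precision for Col8a1, Col5a3 and Col28a1.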

Other observations

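The cartilage collagens, which are not among the 36 genes, did not follow the fibrillar chains. In the Rptor line 4 of 6 tested were lower and 1 was higher, beside 18.2% and 16.6% of all genes. Col2a1, the main chain of cartilage fibrils, had 2838, 2112 and 2715 in control lungs and 1149, 914 and 794 in Rptor-deficient lungs, a log2FC of -1.43 (SE 0.15; limma adjusted p = 0.000355). Col11a2 had 858, 704 and 815 in control lungs and 301, 331 and 335 in Rptor-deficient lungs, a log2FC of -1.29 (SE 0.099; limma adjusted p = 8.73e-05). Col9a2, a FACIT chain of cartilage, rose instead, with 1489, 1125 and 1589.5 in control lungs and 4005, 3552 and 3401 in Rptor-deficient lungs and a log2FC of 1.39 (SE 0.12; limma adjusted p = 0.000178). These 3 genes passed with the same signs in Tfam-deficient lungs, where the log2FC values were -0.72, -0.75 and 0.48. In the Cox10 line Col11a2 alone passed, with 689.8, 668 and 696 in control lungs and 394, 478 and 438 in Cox10-deficient lungs and a log2FC of -0.65 (SE 0.086; limma adjusted p = 0.0283). Col10a1 had values of 0 to 6.06 in all 18 samples and was not tested.

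Col7a1 and Col17a1, which join epithelium to the matrix below it, did not fall with the epithelium markers in Rptor-deficient lungs. Col17a1 had 103, 113 and 150.2 in control lungs and 233, 202 and 203 in Rptor-deficient lungs, a log2FC of 0.81 (SE 0.16; limma adjusted p = 0.00629). Tfam values were 85.3, 102 and 109 in control lungs and 132, 125 and 195 in Tfam-deficient lungs, without overlap but not past the threshold (limma adjusted p = 0.107). Cox10 values of 139, 134 and 158 in control lungs and 168, 155 and 144 in Cox10-deficient lungs overlapped. The log2FC there was 0.12 (limma adjusted p = 0.702), and 0.17 without deficient replicate 3.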
